A study of Mus musculus with 18 samples.

Results

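Immediate early and short-lived transcripts were followed in nuclear and whole cell RNA of mouse Neuro2A (N2A) cells. The set held 10 genes, Fos, Fosb, Jun, Junb, Jund, Atf3, Egr1, Ier2, Myc and Mycn. A locus of the deposited tables was taken when 1 of these symbols was among its listed gene symbols, which gave 11 loci of 168136 in all, or of 52179 with a symbol. Junb had a second locus with 4 reads in all 18 samples, and the remaining 10 loci were among the 15579 that were tested because their mean normalized count was at least 10.

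N2A is an established neuroblastoma line, here of wild type genotype. Cells were left untransfected (control), or received a biotinylated scrambled mimic (Scr) or a biotinylated miR-92b mimic, each mimic at 25 nM. Nuclei or whole cells were then taken, and biotin-based pulldown preceded poly(A) RNA-seq, so that there were 6 groups of 3 samples. For the sequenced samples, the sources used here do not say whether the untransfected lysates also went through the beads. They also do not say whether the 3 samples of a group were separate cultures, so p-values measure only the spread between these samples. A supplementary legend describes a qPCR check of the pulldown with untransfected cultures as control, from 3 experiments, without naming the sequenced samples.

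Immediate early genes are transcribed within minutes of a stimulus from factors that already sit in the cell, with no need for new protein. Their mRNAs are usually removed quickly, in many cases through AU-rich elements in the 3′ untranslated region (UTR) that are bound by decay or stabilising proteins. Fos and Jun family proteins pair through leucine zippers to form AP-1, Atf3 is a stress-induced relative that pairs with Jun proteins, Egr1 is a zinc finger factor and Ier2 is a small nuclear protein. Myc and Mycn are helix-loop-helix factors that act with Max, and amplification of MYCN is a known lesion of human neuroblastoma. A nuclear RNA sample weights young and retained transcripts more than a whole cell sample does.

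The AU-rich motif and the miRNA seed are shown first because they are what these transcripts are known for and what the mimic would read. In the GENCODE annotation on GRCm38, the pentamer ATTTA (sense strand only, overlaps counted) occurred 4 times in the 3′ UTR of Fos and 4 times in that of Jun, 3 times in Atf3, 2 times each in Junb, Egr1 and Myc, and once each in Fosb, Jund and Mycn. The 3′ UTR of Ier2 held 0. Of 10356 tested loci of 1 protein-coding gene, 67.7% had at least 1 pentamer. The longer nonamer TTATTTATT, which contains the pentamer, was found in Fos alone among the members and in 7.24% of those loci. Fos also had the highest density of pentamers, 4.91 per kb, against a median of 1.27 per kb over the same loci. The stretches below are from 3′ UTRs, each 5′ to 3′ on the strand of the gene, with the nonamer (Fos) or the heptamer TATTTAT (the others) in capitals.
Fos, chr12:85477103-85477131, plus strand: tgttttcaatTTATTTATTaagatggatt
Fosb, chr7:19303326-19303354, minus strand: ccacccccagcTATTTATccctttcctgg
Jun, chr4:95049079-95049107, minus strand: ttgcttgtgcaTATTTATaatagcgttcg
Jund, chr8:70700359-70700387, plus strand: cgattccgcccTATTTATgtttctactcg
Atf3, chr1:191170338-191170366, minus strand: aaaatattactTATTTATcccagtattcc

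The mature mimic sequence belongs to a family that shares a seed (bases 2 to 8, in capitals). Sequences are from RefSeq on GRCm38.p6, and the relatives are shown because they would read the same targets.
miR-92b-3p: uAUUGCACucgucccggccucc
miR-92a-3p: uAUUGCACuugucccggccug
miR-25-3p: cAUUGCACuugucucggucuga
The complement of that seed, GTGCAAT, was in the 3′ UTR of 0 of the 10 members and of 7.15% of the 10356 loci. The absence says only that these letters are not in the annotated 3′ UTR.

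Gene structure set the members apart into short genes with few exons. Jun, Junb, Jund and Ier2 had 1 exon, Egr1 had 2, Myc and Mycn had 3, and Fos, Fosb and Atf3 had 4, against a median of 9 exons over the 10356 loci. Atf3 was the longest gene, 47744 bases, because of a distant upstream exon. Single-exon genes made up 2.84% of the 10356 loci. Some listed regions overlap other loci, and the sources used here leave unsaid whether the counting used strand. The Jund region is shared with the antisense locus Gm11175, which had a median of 96.3 normalized counts in nuclear and 120 in whole cell samples, so Jund and this partner may share reads. The Jun region is shared with the antisense locus Junos, at a median of 4.57 and 1.56 normalized counts. The Atf3 region is shared with Gm24748, listed at 0 in every sample.

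Depth was 3752991 to 22920037 reads in loci with a symbol. Reads in loci without a symbol were 9.96% to 10.8% in nuclear samples numbered 1 and 13.1% to 15.3% in the other nuclear samples. In whole cell samples they were 8.06% to 11.3% in those numbered 1 and 4.51% to 10.8% in the others. Whether nuclear samples numbered 1 share a batch was not tested. The libraries separated by compartment: all 8 cytoplasmic markers tested were lower in nuclear samples, with Gapdh 5.11-fold and Actb 4.45-fold lower, while Malat1 was 2.11-fold and Neat1 2.08-fold higher (limma, mean of the 3 treatments, adjusted p = 2.98e-09, 5.39e-10, 1.82e-05 and 4.50e-06). Kcnq1ot1 also rose, and Meg3, with a difference of 1.65 on the log2 scale, did not pass (limma, adjusted p = 0.145). Meg3, in a locus shared with other symbols, had a mean below 1 FPKM. Its difference was 0.42 with DESeq2 and 0.41 with edgeR. Within each treatment all 8 cytoplasmic markers were called lower, at a median of -3.19 in control, -1.71 in Scr and -2.93 in miR-92b. Of these 4 nuclear markers 3 were called in control, 0 in Scr and 3 in miR-92b. Summed FPKM of the 8 cytoplasmic markers was 340 to 556 in nuclear control, 406 to 452 in nuclear miR-92b and 522 to 1124 in nuclear Scr samples. Whole cell samples were at 2055 to 4567, except whole cell miR-92b sample 3 at 9337. Their part in the members' values was not tested, and values without nuclear Scr sample 2 and whole cell miR-92b sample 3 are given with the called members and in the closing section. Of 14 neuroblastoma and neuron markers, 10 reached a mean of 1 FPKM, among them Phox2a, Hand2 and Isl1, while Nefl and Nefm were among those that did not. Of 18 markers of other cell types 15 had a mean below 1 FPKM, though single samples of some exceeded it, and Mbp and Pecam1 were among those with a mean above it.

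Per length, the members covered a wide range. FPKM (fragments scaled to transcript length and to library size) is used here since it alone can be compared between genes. It did not always follow the counts of a gene. Atf3 in nuclear control samples 2 and 3 had 465 and 584 normalized counts but 10.0 and 41.3 FPKM. Over the 18 samples Myc was highest, with a median of 19.7 FPKM and a range of 12.9 to 53.8. Atf3 (13.5 FPKM), Ier2 (11.6), Egr1 (10.96), Jun (10.6), Mycn (9.68), Junb (8.83) and Jund (7.30) followed. These 7 could hardly be ordered: Ier2 was above Egr1 in 10 of 18 samples, Egr1 above Jun in 10, Mycn above Junb in 9 and Junb above Jund in 11. Fos, at 3.64 FPKM, was below Jund in 16 of 18 samples, and Fosb, at 0.762 FPKM, was below Fos in 15 of 18. Among all tested loci the mean level of Myc lay at percentile 83.8, that of Fos at 30.3 and that of Fosb at 4.11. The other 7 members were between 59.5 and 70.8, so 8 of 10 were above the median level of tested loci. Jund and Atf3 changed place most between compartments. Jund had a median of 17.2 FPKM in whole cell samples, below Myc alone, and 5.05 FPKM in nuclear samples, where it was above Fos and Fosb alone. Atf3 had a median of 14.7 FPKM in nuclear samples, below Myc alone, and 9.65 FPKM in whole cell samples.

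**Figure D1:**
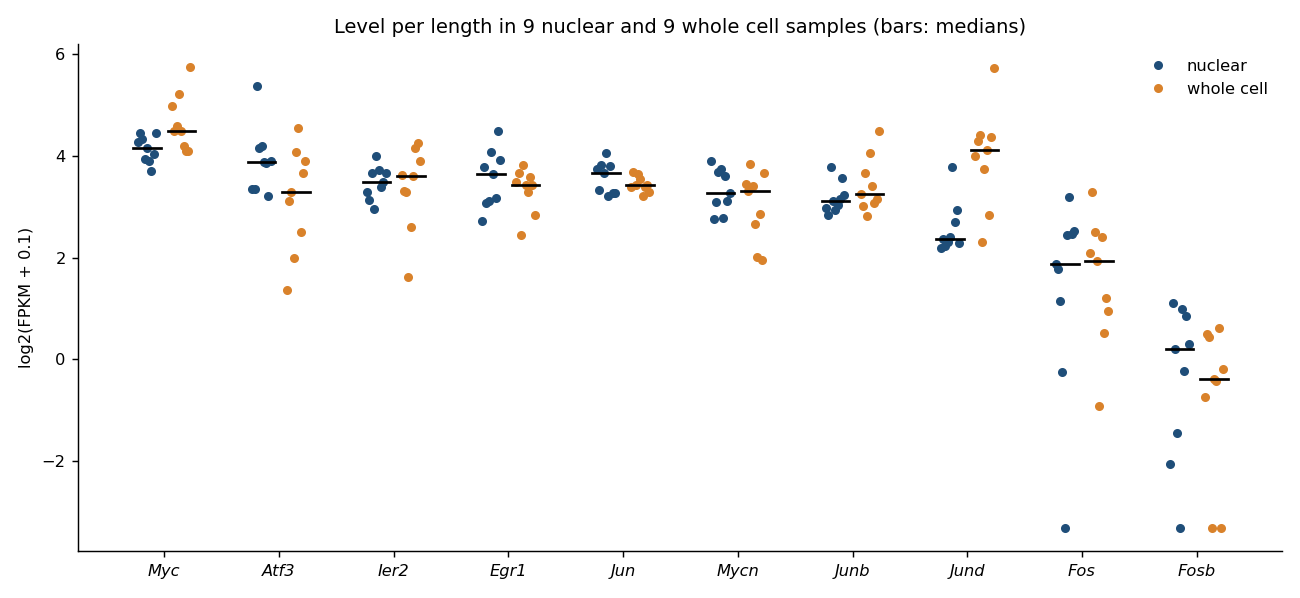
Level per length of each member in the 9 nuclear and 9 whole cell samples, as log2(FPKM + 0.1) on the y axis, with members on the x axis ordered by their median over 18 samples; each point is a sample and each bar a median. Myc sits highest, Fos and Fosb lowest, and Jund has medians of 5.05 FPKM in nuclear and 17.2 FPKM in whole cell samples.

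The first comparison asked which of these transcripts were relatively more or less abundant in nuclear than in whole cell libraries. The treatments averaged here may differ in what the beads captured, which was not tested. With the 3 treatments averaged, Atf3 and Egr1 were higher and Jund was lower in nuclear samples, and the other 7 members did not pass the test. The 3 of 10 members called stand beside 31% of all 15579 tested loci called in the same comparison, 15.3% higher and 15.8% lower, so the members were called about as often as other loci. The median difference of the members was 0.41 on the log2 scale, against 0.14 for all tested loci. It was 0.50 against 0.23 when every sample was rescaled to the same median, and 0.11 against 0.025 with the FPKM table. Values are shares of each library, so a lower level here cannot be told apart from more RNA of other kinds, nor fewer cells with a transcript from less of it per cell.

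Atf3 had the lowest adjusted p of the members. Its locus spans chr1:191170178-191218039 (GRCm38). Its normalized count in nuclear samples was 393, 465 and 584 in control, 492, 842 and 518 in Scr, and 561, 363 and 466 in miR-92b. In whole cell samples it was 135, 289 and 339 in control, 167, 449 and 562 in Scr, and 309, 249.9 and 275 in miR-92b. All 9 nuclear samples were above the whole cell median of 289, and 7 of 9 whole cell samples were below the lowest nuclear one. The compartments did not overlap within control or within miR-92b, while in Scr they did. The share of all tested loci that separate within a treatment was not counted. Such separation is therefore description only, here and for the genes below. Atf3 was 1.78-fold higher in nuclear samples, a difference of 0.83 (SE 0.21, n = 9 and 9) on the log2 scale (limma, adjusted p = 0.00456). The difference was 1.0 in control, 0.78 in Scr and 0.72 in miR-92b, none of them called. Over 32 alternatives Atf3 was called in 4 in control and in 0 in Scr or miR-92b, and its lowest difference in miR-92b was 0.30. It was 0.60 in control without whole cell control sample 1 and 0.25 in Scr without whole cell Scr sample 1. The call was kept without each sample in turn, and with the FPKM table the difference was 0.76 (limma, adjusted p = 0.172).

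Egr1, the most counted member, rose in nuclear samples as well. Its normalized count was 296, 469 and 551 in nuclear control, 339.7, 777 and 710.0 in nuclear Scr, and 496, 919.6 and 577 in nuclear miR-92b samples. In whole cell samples it was 455, 418 and 214 in control, 415, 485 and 303 in Scr, and 485, 318 and 193 in miR-92b. The compartments overlapped in control and Scr, where the lowest nuclear sample was below at least 1 whole cell sample, and only in miR-92b did they separate. Across treatments 6 of 9 nuclear samples exceeded every whole cell sample. Egr1 was 1.55-fold higher, a difference of 0.63 (SE 0.21) on the log2 scale (limma, adjusted p = 0.0269). The treatments gave 0.30 in control, 0.54 in Scr and 1.045 in miR-92b. In control the sign of Egr1 turned to -0.040 without whole cell control sample 3, and in Scr it was 0.32 without nuclear Scr sample 2 and 0.91 without nuclear Scr sample 1. The lowest value of Egr1 in Scr over all alternatives was 0.095. The call ended when 1 of 7 samples was left out, namely nuclear control 3, nuclear Scr 2 or 3, nuclear miR-92b 2, or sample 3 of whole cell control, Scr or miR-92b (limma, adjusted p = 0.0512 to 0.0702), and with the FPKM table the difference was 0.22 (limma, adjusted p = 0.540).

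Jund went the other way. This AP-1 subunit is the Jun family member known for steady expression in resting cells, and its locus is chr8:70698949-70700616. Its normalized count was 85.2, 75.3 and 63.3 in nuclear control, 77.7, 67.9 and 182 in nuclear Scr, and 92.9, 128 and 79.7 in nuclear miR-92b samples. Whole cell samples had 173, 218 and 251 in control, 57.9, 118 and 186 in Scr, and 81.0, 264 and 445 in miR-92b. All 9 nuclear samples were below the whole cell median of 186, and only in control did the compartments separate. The highest whole cell value belonged to miR-92b sample 3, which also had the highest cytoplasmic marker sum. Jund was 1.88-fold lower in nuclear samples, a difference of -0.91 (SE 0.32) on the log2 scale (limma, adjusted p = 0.0325). By treatment the difference was -1.50 in control, -0.14 in Scr and -1.10 in miR-92b. In miR-92b it was -1.79 without whole cell sample 1 (limma, adjusted p = 0.0222) and -0.57 without whole cell sample 3. Leaving out 1 of 11 samples ended the call (limma, adjusted p = 0.0510 to 0.0747): nuclear control 3, nuclear Scr 1 or 2, nuclear miR-92b 1 or 3, and samples 2 or 3 of each whole cell group. Without nuclear Scr 2 and whole cell miR-92b 3 together, a choice made after seeing the data, Jund differed by -0.65 (limma, adjusted p = 0.111), Egr1 by 0.44 (limma, adjusted p = 0.0993), and Atf3 was the 1 member still called.

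**Figure D2:**
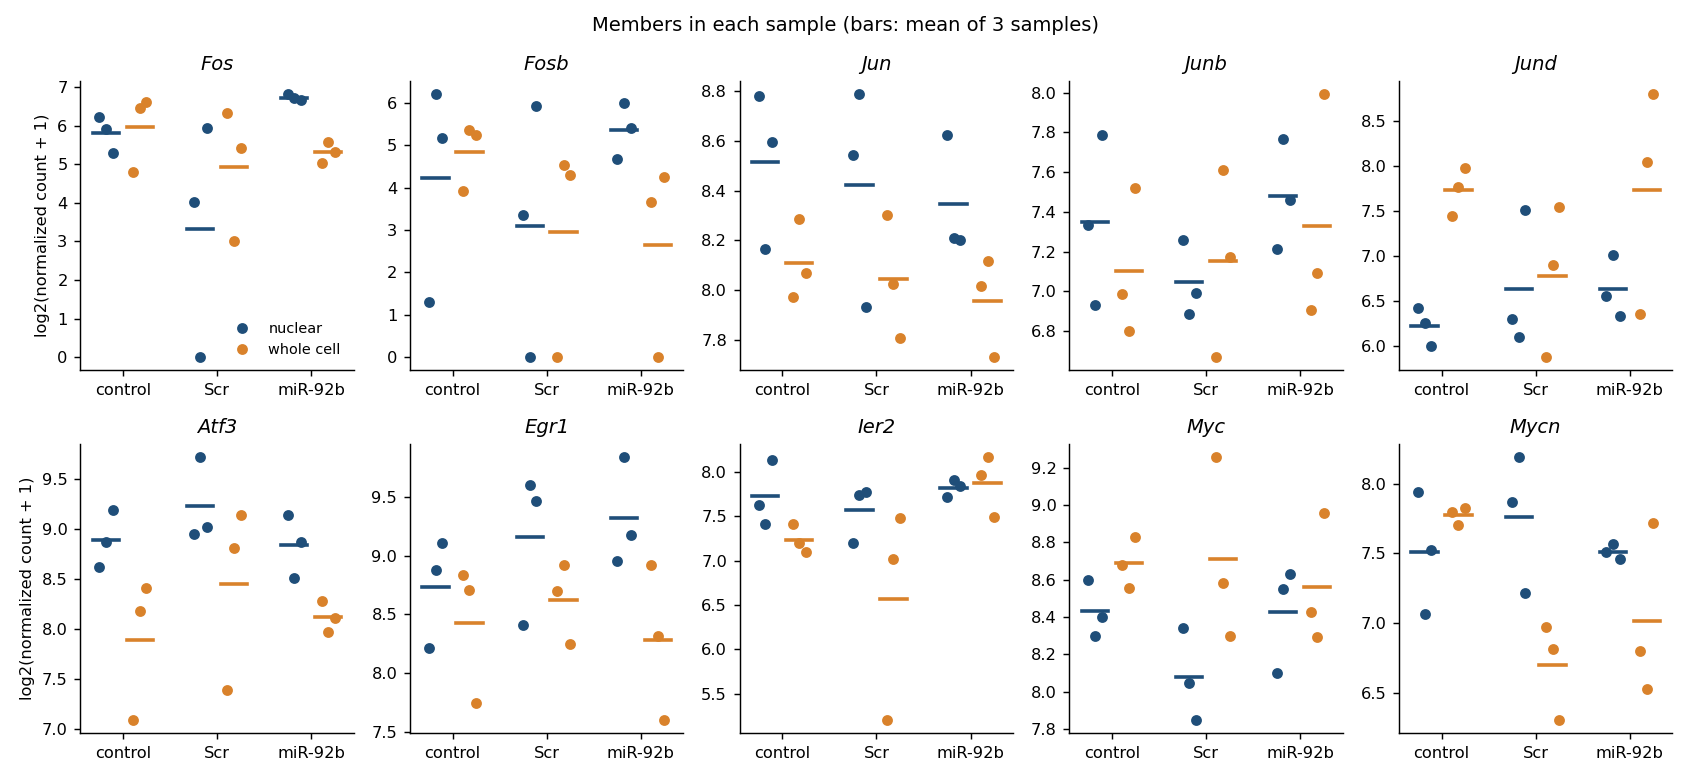
Each panel is a member, with log2(normalized count + 1) on the y axis and the 3 treatments on the x axis; points are single samples (blue nuclear, orange whole cell) and bars are means of 3. Nuclear Atf3 lies above whole cell Atf3 in control and miR-92b, Jund lies below in control, and the points at 0 are samples without a Fos or Fosb read.

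Jun and Junb, the other single-exon Jun genes, did not pass. Jun (chr4:95049034-95167318), the main partner of Fos in AP-1, had 439, 286 and 386 normalized counts in nuclear control, 372, 441 and 243 in nuclear Scr, and 393, 295 and 293 in nuclear miR-92b samples. The whole cell values were 250.5, 311 and 267 in control, 315, 259 and 223 in Scr, and 258, 277 and 212 in miR-92b. The difference of Jun varied least between treatments, with values of 0.41, 0.38 and 0.39 on the log2 scale in control, Scr and miR-92b, though without single samples the value in Scr ran from 0.19 to 0.62. Its mean difference of 0.39 (SE 0.16) missed the threshold (limma, adjusted p = 0.0624) and passed it in 8 of 31 alternatives, DESeq2 and edgeR on the reads among them (adjusted p = 0.0363 and 0.0420). With the FPKM table the difference of Jun was 0.13 (limma, adjusted p = 0.598). Junb, an AP-1 subunit that often opposes Jun, ranged from 117 to 219.9 normalized counts in nuclear samples and from 101 to 254 in whole cell samples. The compartments overlapped in each treatment, and the mean difference was 0.10 (SE 0.23, 95% interval -0.38 to 0.57; limma, adjusted p = 0.778), with the sign reversed to -0.26 in the FPKM table. The second Junb locus had 3 reads in nuclear control sample 1 and 1 read in nuclear miR-92b sample 3, at or under the floor of 3 reads used here for detection.

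Fos and Fosb were counted least and varied most. Fos (chr12:85473890-85477300), which needs a Jun partner to bind DNA, had 73.7, 59.2 and 38.0 normalized counts in nuclear control, 15.2, 0 and 60.5 in nuclear Scr, and 112, 104 and 100.3 in nuclear miR-92b samples. Whole cell values were 27.0, 87.3 and 96.7 in control, 78.9, 7.09 and 42.2 in Scr, and 31.5, 47.1 and 38.9 in miR-92b. In miR-92b each nuclear sample was above each whole cell sample, whereas in control and Scr the samples were mixed. The 0 in nuclear Scr sample 2 was 0 reads, which allows up to 3.45 normalized counts (3 reads), an interval that covers counting error only. The differences were -0.16 in control, -1.60 in Scr and 1.42 in miR-92b, with an SE of 1.13 each, and the mean of -0.11 (SE 0.65) did not pass (limma, adjusted p = 0.915). The mean turned to 0.44 without nuclear Scr sample 2 and to 0.12 without whole cell Scr sample 1.

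Fosb, which makes the long-lived variant known from chronic stimulation of neurons, was read even less. It had 1.44, 72.6 and 34.8 normalized counts in nuclear control, 9.14, 0 and 59.3 in nuclear Scr, and 24.6, 62.6 and 41.2 in nuclear miR-92b samples. Whole cell samples had 14.1, 39.8 and 36.6 in control, 0, 22.3 and 18.6 in Scr, and 11.7, 0 and 17.8 in miR-92b. Within 1 group the values thus ran from a single read to 54 reads. The nuclear miR-92b samples were above the whole cell miR-92b samples, a difference of 2.72 (SE 1.63) that did not pass (limma, adjusted p = 0.281) and that was 1.40 without whole cell miR-92b sample 2 and 3.52 without sample 3. The mean difference was 0.75 with a 95% interval of -1.20 to 2.70 (limma, adjusted p = 0.574), which is from 2.29-fold lower to 6.48-fold higher. The mean of Fosb was 0.26 without whole cell Scr sample 1 and 1.26 without nuclear Scr sample 2.

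Ier2, Myc and Mycn also missed the threshold. Ier2 ranged from 146 to 280.0 normalized counts in nuclear samples and from 35.9 to 287 in whole cell samples, with a mean difference of 0.48 (SE 0.25; limma, adjusted p = 0.150), and 0.10 in FPKM. Its lowest value, 35.9, was in whole cell Scr sample 1, and the difference was 1.0 in Scr, 0.49 in control and -0.05 in miR-92b. Without that sample the difference of Ier2 was 0.32 in Scr and 0.25 in the mean. Myc (chr15:61985391-61990374) had 387, 313 and 337 normalized counts in nuclear control, 323, 264 and 229.5 in nuclear Scr, and 273, 373 and 395 in nuclear miR-92b samples. The whole cell values of Myc were 409, 375 and 454 in control, 611, 382 and 314 in Scr, and 343, 313 and 495 in miR-92b. Only 2 of 9 nuclear samples were above the whole cell median of 382, and the mean difference was -0.34 (SE 0.15; limma, adjusted p = 0.0967). Myc passed without whole cell Scr sample 3, at -0.41 (limma, adjusted p = 0.0494).

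Mycn (chr12:12936096-12941914), the MYC gene tied to neural crest derived tumours, did not pass either. It had 244, 133 and 184 normalized counts in nuclear control, 233, 291 and 148 in nuclear Scr, and 182, 189 and 175 in nuclear miR-92b samples. Its whole cell values were 221, 208 and 226 in control, 124, 111 and 78.3 in Scr, and 111, 91.4 and 209.7 in miR-92b. The whole cell Scr samples were below every other group but whole cell miR-92b, and in Scr the compartments did not overlap. The difference was -0.26 in control, 1.06 in Scr and 0.50 in miR-92b, with a mean of 0.43 (SE 0.22; limma, adjusted p = 0.139). In control it was -0.48 without nuclear control sample 1 and -0.043 without nuclear control sample 2. In miR-92b it was 0.25 without whole cell sample 2 and 0.85 without whole cell sample 3, and without the latter the mean passed at 0.55 (limma, adjusted p = 0.0493).

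**Figure D3:**
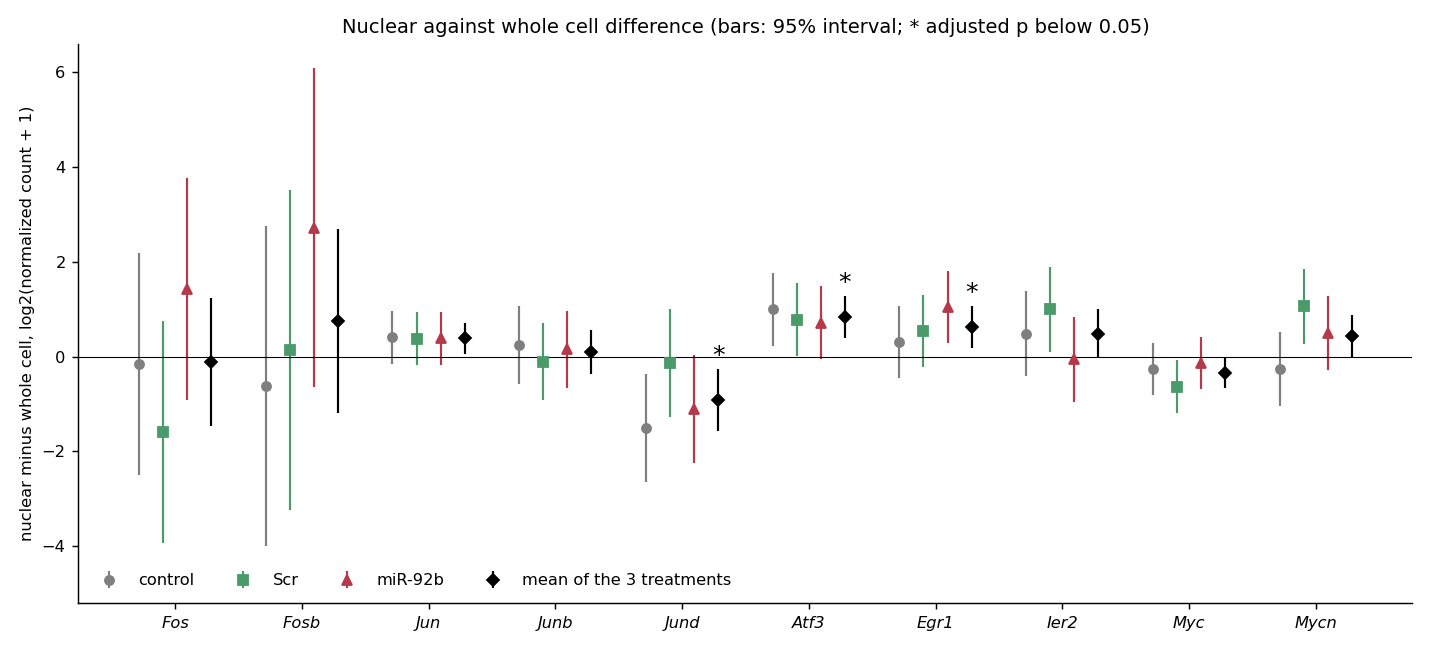
Nuclear minus whole cell difference of each member on the log2(normalized count + 1) scale (y axis) for control, Scr, miR-92b and the mean of the 3 treatments; bars are 95% intervals and an asterisk marks an adjusted p below 0.05 in the mean. Atf3 (0.83) and Egr1 (0.63) lie above 0 and Jund (-0.91) below it, while the intervals of Fos and Fosb span several log2 units.

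Within single treatments, with 3 samples against 3, limma called 0 of the 10 members. The background was 9.85% of loci in control (2.94% higher and 6.91% lower), 5.17% in Scr (1.46% higher and 3.7% lower) and 13.3% in miR-92b (6.66% higher and 6.63% lower). At an unadjusted p under 0.05 there were 2 members in control (Jund and Atf3), 4 in Scr (Ier2, Atf3, Myc and Mycn) and 1 in miR-92b (Egr1), beside 3541 (22.7%), 3448 (22.1%) and 4460 (28.6%) of the 15579 loci. edgeR on the reads called 0 members in each, beside 1422 loci in control, 579 in Scr and 1969 in miR-92b. DESeq2 called Jund in control, Mycn in Scr and 0 members in miR-92b, beside 2058, 1288 and 2570 loci. It gave no adjusted p to 4233 loci in control, Fosb among them, and to 18 each in Scr and miR-92b. The lowest adjusted p of limma was 0.0906 for Jund in control, 0.10 for Mycn in Scr and 0.0614 for Egr1 in miR-92b.

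Whether nuclear against whole cell levels depended on the treatment was tested for each locus, and 0 members and 0% of loci were called (limma). DESeq2 and edgeR also called 0 members, beside 8 loci and 1 locus. The lowest p among the members was 0.0655, unadjusted, for Mycn (limma, adjusted p = 0.962), so 0 members had an unadjusted p under 0.05. The opposite signs of Fos in Scr and miR-92b, and of Mycn in control and Scr, are thus not shown to differ.

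**Figure D4:**
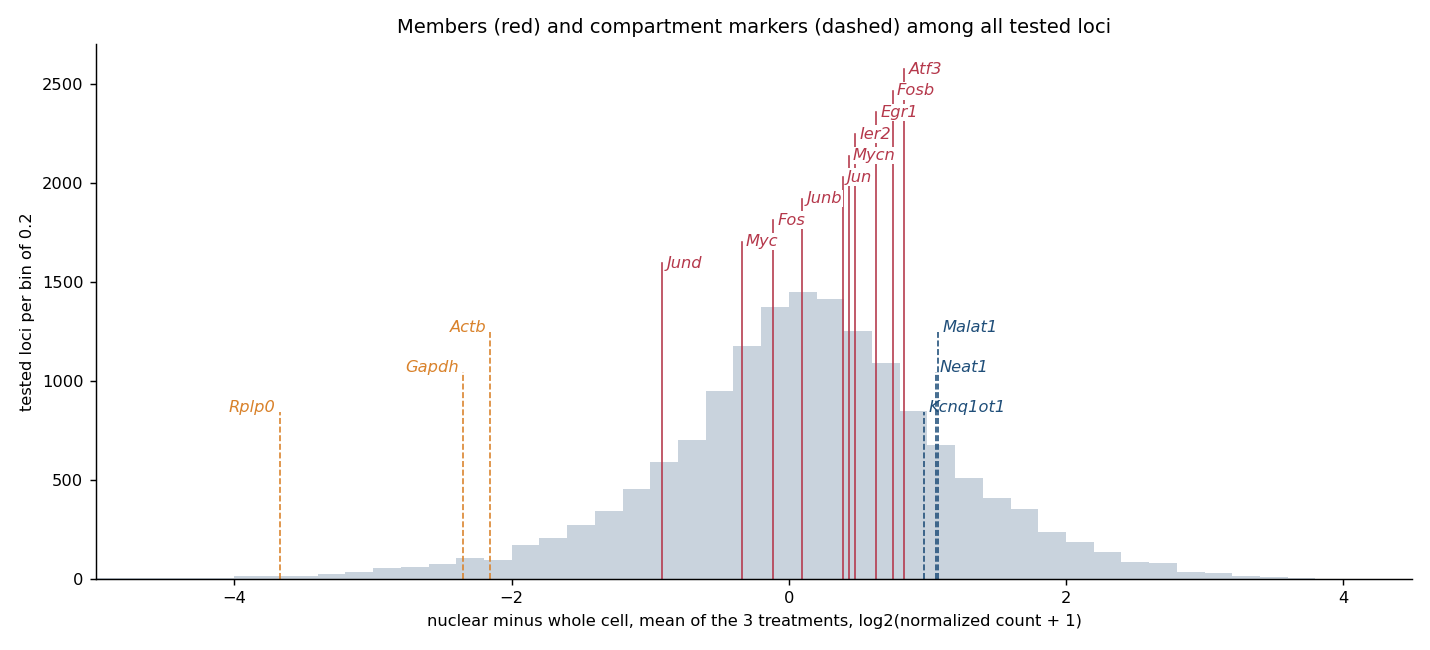
Histogram of the nuclear minus whole cell difference (x axis, log2 scale, mean of the 3 treatments) over the 15579 tested loci, in bins of 0.2, with the members as red lines and markers as dashed lines; line heights carry no value. The members lie between -0.91 (Jund) and 0.83 (Atf3), inside the bulk of loci, while Gapdh, Actb and Rplp0 lie far to the left.

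The members' differences were smaller than those of the called compartment markers. Among the differences of all tested loci Jund lay at percentile 14.1 and Atf3 at percentile 77.9. Rplp0, a ribosomal protein mRNA, was 12.7-fold lower in nuclear samples, against 1.88-fold for Jund, and no member reached the difference of Malat1 (1.08). With the FPKM table Jund, at -1.40, was larger in size than Malat1 (1.07), Kcnq1ot1 (1.04) and Neat1 (0.88). Single-exon genes had a median difference of 0.35 over 294 loci, against -0.07 over all 10356 loci of 1 protein-coding gene. Of the 294 loci 10.9% were called higher and 16.0% lower, against 11.5% and 20% of the 10356. Of the 4 single-exon members Jund was at -0.91, Junb at 0.10, Jun at 0.39 and Ier2 at 0.48, and Jund alone passed. Whether they differ from each other was not tested. Loci with the AU-rich nonamer had a median of 0.01, and Fos, the 1 member with it, was at -0.11.

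The second set of comparisons asked whether the members differed between treatments within a compartment. The libraries followed pulldown of the biotinylated mimics, and the paper treats RNAs that differ between miR-92b and scrambled pulldown as binding partners. Capture with a mimic and level in the cell cannot be told apart in these comparisons. Of the 10 members, 0 were called by limma in miR-92b against Scr, in nuclear samples (0% of loci) or whole cell samples (0.00642% of loci, which is 1 locus). Scr against control called 0% in both compartments, and miR-92b against control called 0% in nuclear and 0.00642% in whole cell samples, with 0 members each. DESeq2 and edgeR likewise called 0 members in these 6 comparisons. Among all loci DESeq2 called 1 in nuclear miR-92b against Scr, and in whole cells 176 in miR-92b against Scr, 37 in Scr against control and 21 in miR-92b against control. edgeR called 1 locus each in whole cell miR-92b against Scr and against control, and 0 in the other 4. The comparisons of 1 compartment share samples, so they are not independent of each other.

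At an unadjusted p under 0.05 a member appeared 4 times. Of the 15579 loci, miR-92b against Scr had 687 at that level in nuclei and 1515 in whole cells, Scr against control had 916 and 793, and miR-92b against control had 50 and 731. Fos was higher in nuclear miR-92b (112, 104 and 100.3 normalized counts) than in nuclear Scr (15.2, 0 and 60.5), by 3.41 (SE 1.13) on the log2 scale (limma, adjusted p = 1.0). In nuclear Scr against nuclear control the difference of Fos was -2.48 (limma, adjusted p = 0.838). Without nuclear Scr sample 2 these differences were 1.75 and -0.82, and without nuclear Scr sample 3 they were 4.72 and -3.80. DESeq2 gave 2.05 and -1.16, edgeR 2.11 and -1.21, and a pseudocount of 8 gave 2.28 and -1.44. In normalized counts the 3 nuclear miR-92b samples were closer to each other than the 3 of any other Fos group, and nuclear Scr held the sample without a Fos read. In FPKM they were not, with an SD of 2.06 on a mean of 6.71, against 0.44 on 1.79 in whole cell miR-92b. Ier2 was higher in whole cell miR-92b (249, 287 and 179) than in whole cell Scr (35.9, 129 and 178), by 1.31 (SE 0.43; limma, adjusted p = 0.365), and by 0.63 without whole cell Scr sample 1. Mycn was lower in whole cell Scr than in whole cell control by 1.08 (SE 0.38; limma, adjusted p = 0.957). None passed the adjustment over all loci.

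The related genes were described from lists, by their counts in the mean of the 3 treatments, with the background of 31% called. Of 21 tested loci of AP-1 and ATF/CREB relatives, 1 was higher and 5 were lower in nuclear samples, while 5 were higher and 4 lower with rescaled medians, and 4 and 5 with quantile normalization. All tested loci moved too, from 2377 higher and 2454 lower to 2908 and 2119 with rescaled medians. With quantile normalization they were 2827 and 2484. Atf4, the translation-controlled activator upstream of Atf3 in the stress response, was 2.80-fold lower (limma, adjusted p = 1.43e-07), with 588 to 1467 normalized counts in nuclear and 1714 to 4301 in whole cell samples. The groups did not overlap. The small Maf factor Maff was 2.58-fold lower, and Cebpg was 1.25-fold higher, with the reverse sign in the FPKM table (limma, adjusted p = 0.000353 and 0.0236). Atf3 and Atf4 were thus called in opposite directions.

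Of 50 loci of other immediate early genes, 2 were higher and 5 lower. Cdkn1a, the cyclin-dependent kinase inhibitor p21, fell by 1.66 on the log2 scale and Nfkbia, the NF-κB inhibitor, by 1.12 (limma, adjusted p = 0.0105 and 0.000528). Tiparp, an ADP-ribosyltransferase, rose by 0.81 and the small GTPase gene Gem by 0.51 (limma, adjusted p = 2.96e-05 and 0.0233), against 0.46 and 0.26 in FPKM. Their median difference was 0.10, against 0.14 for all loci. In FPKM the list had 0 higher and 9 lower loci, with a median of -0.14 against 0.025.

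Of 16 loci of the MYC network, 2 were higher and 3 lower. Ruvbl2, an ATPase that joins Myc in chromatin complexes, had 2 tested loci: 1 differed by -2.01 (SE 0.63; limma, adjusted p = 0.0186) and the other by 0.83 (limma, adjusted p = 0.309), so the gene as a whole has no single direction. Fbxw7, the ubiquitin ligase adaptor that marks Myc protein for destruction, rose by 0.64, and Mga, a Max partner, by 0.48 (limma, adjusted p = 0.0139 and 0.00292). Mlx, in a locus shared with Coasy, fell by 0.50 (limma, adjusted p = 0.0337). In other scalings 1 to 3 loci of this list were lower and 1 to 6 higher.

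Of 22 loci that act upstream of Fos and Egr1 (SRF, ternary complex and CREB regulators and their kinases), 1 was higher and 8 were lower. Srf, the factor at the serum response elements of Fos and Egr1, had 61.7 to 188 normalized counts in nuclear and 157 to 461 in whole cell samples and fell by 0.97 (limma, adjusted p = 0.00135). Mapk3, the kinase ERK1, in a locus shared with Gdpd3, fell by 1.48, and the ribosomal S6 kinase gene Rps6ka3 rose by 0.46, with the reverse sign in the FPKM table (limma, adjusted p = 0.000306 and 0.000557). The list's median was -0.14, below that of all loci. With rescaled medians 4 loci were higher and 7 lower, and with quantile normalization 4 and 6, with a median of -0.019.

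Of 13 loci of proteins that bind AU-rich elements, 4 were higher and 5 lower, and in FPKM 1 was higher and 6 were lower. The neuronal Hu proteins, which stabilise such mRNAs, divided: Elavl3 (in a locus with Zfp653) fell by 0.94 and Elavl4 by 0.91, while Elavl2 rose by 0.73 (limma, adjusted p = 5.74e-06, 0.000105 and 3.25e-06). For Elavl2 the nuclear samples ran from 2016 to 3084 normalized counts and the whole cell samples from 1205 to 1732, with no overlap. In FPKM the difference of Elavl2 was only 0.093. Tia1, a translational repressor at AU-rich elements, in a locus shared with C87436 and Gm44790, rose by 0.61 (limma, adjusted p = 0.000176).

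**Figure D5:**
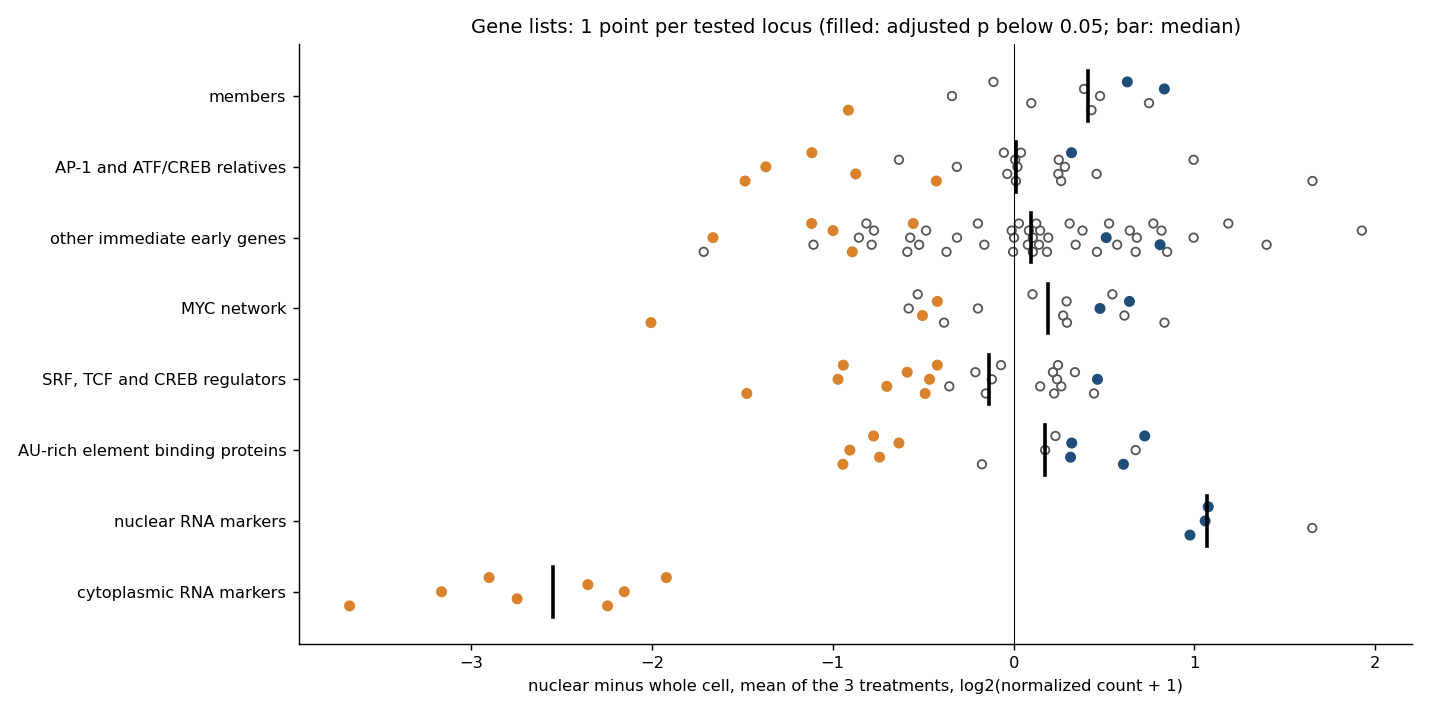
Nuclear minus whole cell difference (x axis, log2 scale, mean of the 3 treatments) of each tested locus in the gene lists (y axis); filled points have an adjusted p below 0.05 (blue higher, orange lower in nuclear samples), open points do not, and bars are list medians. The members' median is 0.41, that of the 8 cytoplasmic markers -2.55.

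Correlations between members over the 18 samples had both signs, and no test of them was run. For each member the other tested loci were ranked by Pearson r of log2(normalized count + 1), as a description, since the samples share compartment and treatment. The nearest other member was at rank 312 or lower for each of the 10, and the closest ranked pair was Mycn and Jun (r = 0.53). Fos and Fosb, which are paralogues, had r = 0.42. Jun and Jund had r = -0.67, and Atf3 and Myc r = -0.69. In the Jun and Jund pair and in the Atf3 and Myc pair the nuclear against whole cell differences had opposite signs.

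The loci most like a member were mostly no immediate early genes. The nearest to Atf3 were Csnk1g3 (r = 0.88) and Arc (r = 0.88), a neuronal immediate early gene that differed by 0.57 between compartments without passing (limma, adjusted p = 0.131). For Jund they were Aurkaip1 (0.91) and Ptpn1 (0.88), and for Ier2 they were Kcnc1 (0.91) and Bnc2 (0.91). Fos was nearest to Tbcc (0.86) and Slc26a4 (0.86), Fosb to Neurl2 (0.88) and C130036L24Rik (0.86), Jun to Trmt6 (0.87) and the joint locus of Eme2 and Mapk8ip3 (0.86), and Junb to Mrpl13 (0.81) and Ppp1r35 (0.79). Egr1 was nearest to Alkbh1 (0.85) and A730062M13Rik (0.82), Myc to Kctd17 (0.84) and Rnf138 (0.82), and Mycn to 3110009E18Rik (0.82) and Cenpu (0.82). Each of these r is the highest or next highest over all tested loci and is large by that choice.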

How the data were processed

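Per the labels and the study's methods, the authors made directional poly(A) libraries (NEBNext Ultra Directional), sequenced them on a HiSeq instrument, converted reads with bcl2fastq 2.17, trimmed them with Trimmomatic 0.30 and used TopHat2 and Cufflinks on GRCm38 (no version or annotation release named). The deposited signal values are normalized counts per locus, scaled between samples by the authors, and FPKM values were deposited beside them. Of the deposited counts all 606175 values above 0 and below 1000 reads were whole multiples of 1 read within 0.02 reads, so reads were recovered for edgeR 4.0.16 and DESeq2 1.42.0. Tested were loci that carry a symbol and average 10 or more normalized counts, using limma 3.58.1 (R 4.3.3; variance trend, 1 model of 6 groups, log2(normalized count + 1), two-sided, Benjamini-Hochberg over 15579 loci, threshold 0.05). Differences are on that scale, and for low loci they departed from count models in both directions. Fos in nuclear miR-92b against Scr was 3.41, against 2.05 with DESeq2. Fosb in the mean of the 3 treatments was 0.75, against 1.06 with DESeq2. The other genes named were, per list, at most 2 loci a direction with the largest called difference, with fixed compartment markers and the 2 loci most alike to each member. Members and lists were chosen with earlier results of these data known. Locus lengths and 3′ UTRs came from GENCODE on GRCm38. The fit was also run on simulated counts drawn independently for each sample, unlike these data, and no support is drawn from that run. No 2 samples were duplicates: the most alike pair had equal reads in 6.62% of tested loci. Alternatives are given in the closing section.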

Additional observations from a re-analysis of the deposited data

How the results depend on the processing

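Atf3 kept its call in 30 of 31 alternatives for the mean of the 3 treatments (limma unless named, adjusted p = 0.000677 to 0.172), Egr1 in 20 (adjusted p = 0.00597 to 0.540) and Jund in 18 (adjusted p = 0.00372 to 0.111), with the direction the same throughout. The members called there numbered 3, and 1 without the filter on low values and with the FPKM table. With rescaled medians, DESeq2 and edgeR 3 were higher and 1 lower, and quantile normalization called 5. Leaving out each sample in turn called 1 to 4. Without nuclear Scr replicate 2 and whole cell miR-92b replicate 3 (chosen after seeing the data) 1 was called. In control the count moved from 0 to 1 with quantile normalization, with DESeq2 and without those 2 samples, and to 2 in a model of the compared groups alone and with sample weights, and ranged from 0 to 1 without each sample. In Scr it moved to 1 with DESeq2 and ranged from 0 to 1. In miR-92b it moved to 1 with a pseudocount of 8, rescaled medians, quantile normalization and the replicate block, and ranged from 0 to 2. The treatment comparisons and the test between treatments kept 0 members.

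Of 40 values with a reversed sign none was called, and their causes were not tested. In control they were Fosb 0.29 with DESeq2 and 0.27 with edgeR, and with FPKM Junb -0.11, Egr1 -0.0070 and Ier2 -0.049; without single samples Fos ran from -0.73 to 0.17, Fosb from -1.61 to 0.85 and Egr1 from -0.040 to 0.56. In Scr, Fosb was -0.27 with quantile normalization and -0.26 with sample weights; without single samples Fos ran from -2.91 to 0.060, Fosb from -1.33 to 1.68, Junb from -0.35 to 0.12 and Jund from -0.58 to 0.25, and without the 2 samples above Fos was 0.060 and Jund 0.13. In miR-92b, Junb was -0.26 with FPKM, Ier2 0.036 with rescaled medians and 0.092 with quantile normalization, and Myc 0.027 with quantile normalization, 0.070 with sample weights and 0.066 without the 2 samples; without single samples Junb ran from -0.063 to 0.48, Ier2 from -0.25 to 0.092 and Myc from -0.26 to 0.066. In the mean, Fos was 0.11 with a pseudocount of 8, 0.063 with quantile normalization, 0.17 with sample weights, 0.14 with DESeq2, 0.15 with edgeR and 0.44 without the 2 samples, and ran from -0.55 to 0.44 without single samples; Junb was -0.26 with FPKM. With FPKM the mean was also -1.40 for Jund, 0.36 for Fosb and -0.51 for Myc. In miR-92b the lowest values over all alternatives were -0.59 for Ier2 and -0.58 for Myc. Without the 2 samples Fosb also moved from 0.75 to 1.53 and Junb from 0.10 to 0.23 in the mean, Fosb from 0.14 to 1.68 in Scr and Jund from -1.10 to -0.57 in miR-92b. Without single samples, with no change of sign, Jun ran from 0.27 to 0.58 in control and 0.25 to 0.47 in miR-92b, Junb from 0.029 to 0.46 in control and 0.018 to 0.21 in the mean, Ier2 from 0.28 to 0.64 in control, Myc from -0.84 to -0.36 in Scr and Egr1 from 0.70 to 1.37 in miR-92b.

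In a treatment, same-numbered nuclear and whole cell samples had correlations of deviations from -0.0438 to 0.0227, which miss batches across treatments. Of 18 samples 9 correlated best with their own number. With the replicate block Egr1 in miR-92b had an adjusted p of 0.0474 (limma), and no other member count changed.

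The share of all loci called, which the members are read against, also moved. In control it was 1535 loci, 3108 for the compared groups alone and 4315 with sample weights; in Scr 805, 1288 with DESeq2 and 399 without a filter; in miR-92b 2071 and 597 for the compared groups alone. With the sample in parentheses left out, it ran from 850 (nuclear control 3) to 2435 (whole cell miR-92b 3) in control. In Scr it ran from 386 (whole cell Scr 3) to 1744 (whole cell miR-92b 3). In miR-92b it ran from 975 (whole cell miR-92b 3) to 2914 (whole cell miR-92b 1). In whole cell samples DESeq2 called 176 loci in miR-92b against Scr and 21 against control, where limma called 1 each, and 37 in Scr against control, where limma called 0. Without whole cell miR-92b 1 limma called 77 loci in whole cell miR-92b against Scr and 7 against control. Without whole cell Scr 2 it called 13 in miR-92b against Scr and 12 in Scr against control. Without nuclear Scr 1 limma called 69 loci in nuclear Scr against control and 49 in nuclear miR-92b against Scr, against 0 with all samples. In the mean limma called 4831 loci, edgeR 4392, DESeq2 5087, rescaled medians 5027, quantile normalization 5311 and FPKM 3904. No filter gave 4177 of 28348 tested, and the fit without the 2 samples 4629. Without single samples the count ran from 4092 to 5391. With FPKM 1389 loci were higher and 2515 lower in the mean, against 2377 and 2454.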
